A study of Mus musculus with 28 samples.

Results

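The expression of 10 genes of Wnt signalling was followed in tumours and in the liver next to them, in 14 mice. They were chosen by name, as the secreted ligands Wnt2 and Wnt9b, the ligand-side amplifier Rspo3, the receptor-degrading ligases Rnf43 and Znrf3, beta-catenin (Ctnnb1) and its scaffold Apc, the inhibitors Nkd1 and Notum, and the transcription factor Tcf7l2. All 10 were found among the 18182 genes of the deposited table, and all 10 passed the filter on low counts. Each of the 28 libraries came from a mouse carrying c-Myc/Alb-cre, a c-Myc transgene together with Cre recombinase under the albumin promoter, which acts mainly in hepatocytes. Hepatocellular carcinoma tissue (Tu) gave 14 of the libraries and the liver around it (Pe) the other 14. By label 11 animals are F and 3 are M, letters that are left unexplained. Peritumour tissue carries the transgene too, no liver without it was among the samples, and the labels give no age. Tumour and peritumour libraries that share a sample code were taken as 1 animal, which gave 14 pairs.

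In the Wnt pathway, secreted Wnt proteins bind Frizzled and Lrp receptors, the destruction complex built on Axin and Apc is switched off, and beta-catenin enters the nucleus to act with TCF factors. In healthy mouse liver the ligands come largely from endothelial cells around the central vein and along the sinusoids, Rspo3 from there and from stellate cells. They keep up a pericentral programme in hepatocytes that includes Glul, Axin2, Lgr5, Tbx3 and Cyp2e1. R-spondins bind Lgr receptors and clear Rnf43 and Znrf3 from the surface, which leaves more Frizzled in place, while Rnf43, Znrf3, Nkd1, Notum and Axin2 are themselves targets of the pathway and act as its negative feedback.

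Depth was similar over the libraries, at 14777567 to 17576921 estimated counts, and levels are given below as CPM, counts scaled to a library total of 1000000. Hepatocyte markers dominated both tissues, with a summed level of 8 genes of 21087 to 48246 CPM in tumours and 19354 to 59342 CPM in peritumour tissue. Sample codes came in 2 styles, 6 pairs with the first (all M animals with F1, F2 and F3) and 8 with the second (the remaining F animals), and the style was treated as a possible batch. The tumour of F replicate 2 stood apart from the other tumours in several genes described below. F replicates 2, 5 and 6 were also left out together, as pairs singled out for blood precursor transcripts.

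Rspo3 and Wnt2 on the ligand side, and Rnf43 and Notum among the feedback genes, were lower in tumour once each tumour was compared with its own peritumour tissue. Wnt9b and Nkd1 were lower in most pairs without passing the test, and Znrf3, Ctnnb1, Apc and Tcf7l2 had fold changes close to 0. With the animal as a block in edgeR's quasi-likelihood test, Rspo3, Wnt2, Rnf43 and Notum fell, 4 of the 10 genes, each at an adjusted p (Benjamini-Hochberg over 14117 genes) under 0.05. In that fit 11.5% of all genes tested were called, 5.91% lower and 5.59% higher. None of the 10 passed when the libraries were compared without pairing, where 1.05% of all genes were called. There the same 4 genes had an unadjusted p under 0.05, as 2672 of all genes did, and DESeq2 called Rspo3 alone. The median log2 fold change (tumour over peritumour) of the 10 genes was -0.53 with the block and -0.47 without it, beside -0.01 and 0.01 over all genes tested. For none of the 10 did the 14 tumours lie wholly apart from the 14 peritumour libraries. How many of all genes tested lie apart was not counted, so nothing particular to the 10 is read from this.

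**Figure D1:**
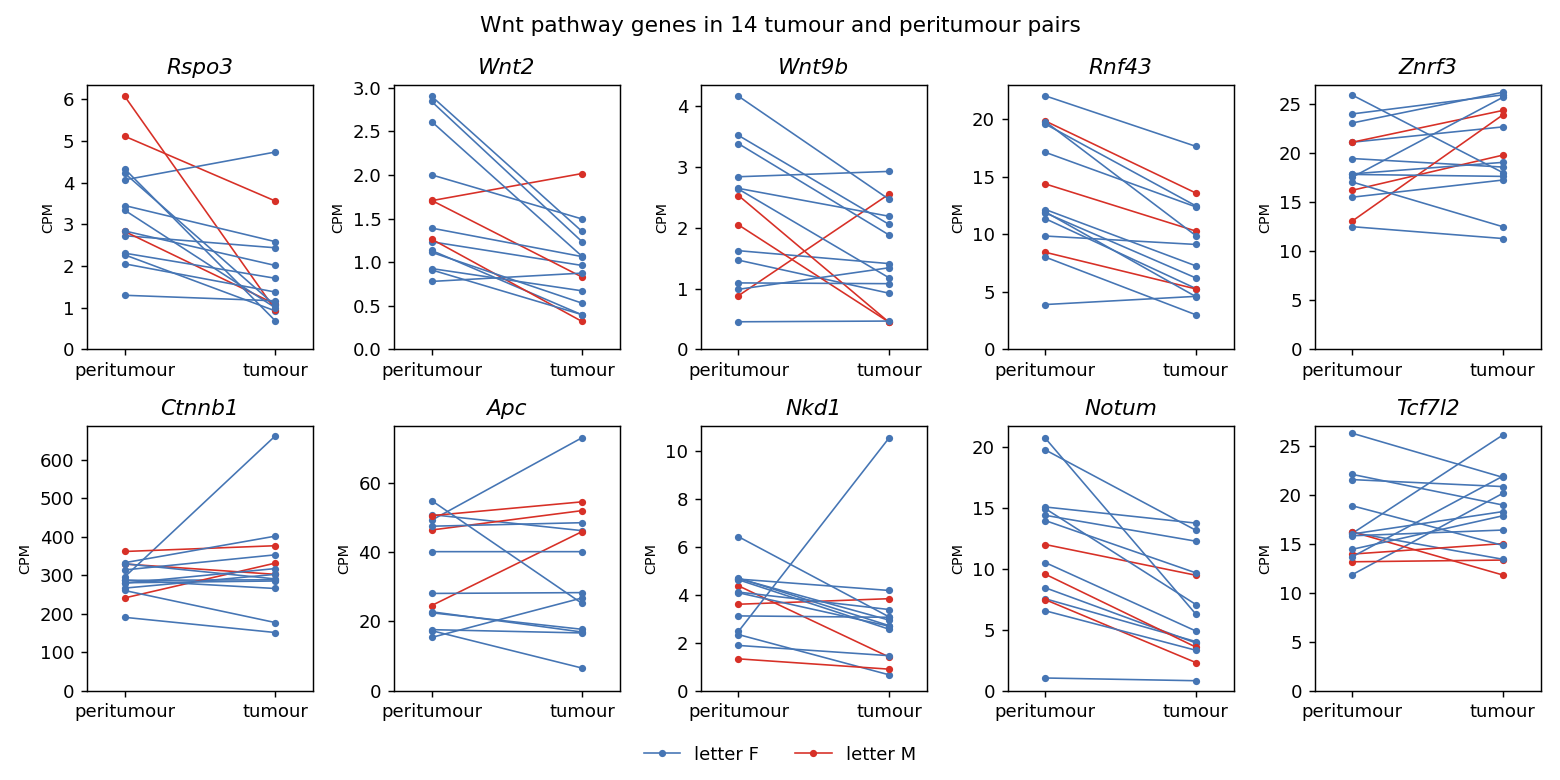
Expression of the 10 genes in CPM (vertical axes, linear, from 0) in peritumour and tumour libraries. Each line joins the 2 libraries of 1 animal, blue for the letter F (11 animals) and red for M (3 animals). Notum is lower in the tumour of all 14 animals, Rspo3 and Rnf43 in 13, and the line that climbs steeply for Nkd1 and Ctnnb1 is F replicate 2.

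On a scale per transcript length, the authors' TPM values, Ctnnb1 was far the most abundant, at 133 ± 22.2 TPM in peritumour and 148 ± 58.3 TPM in tumour tissue (SD, n = 14 each). Peritumour levels of Notum (9.22 ± 4.41 TPM) and Tcf7l2 (7.07 ± 1.71 TPM) came next and overlapped each other. Rnf43 (4.92 ± 2.00 TPM), Apc (4.82 ± 2.18 TPM) and Znrf3 (4.27 ± 0.927 TPM) could not be ordered, since they differed by less than their SDs. The ligands were scarce, Rspo3 at 2.33 ± 0.918 TPM, Wnt2 at 1.03 ± 0.469 TPM and Wnt9b at 0.774 ± 0.396 TPM, with Nkd1 at 1.41 ± 0.526 TPM between them. In tumour the order was kept at both ends, with Wnt2 at 0.594 ± 0.313 TPM and Wnt9b at 0.541 ± 0.293 TPM lowest, while Notum (5.28 ± 3.25 TPM) and Rnf43 (3.12 ± 1.56 TPM) each stood 1 or more places lower. The ligands rest on few reads, 5 to 46 estimated counts per library for Wnt2, 7 to 66 for Wnt9b and 11 to 96 for Rspo3.

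Rspo3 (gene ID 72780) encodes R-spondin 3, which strengthens the Wnt signal at the receptor. Its row in the deposited table lies on chromosome 10 at 29453106 to 29614471 on GRCm38. That span of 161366 bases is longer than the 82762 bases that the RefSeq gene spans, and the strand in that row differs from the GENCODE annotation. Peritumour levels ran from 1.30 CPM over a median of 3.09 CPM to 6.07 CPM, and tumour levels from 0.690 CPM over 1.27 CPM to 4.73 CPM. Below every peritumour library lay 7 tumours, and the tumour of F replicate 3 was the only one above its own peritumour library, at 4.73 against 4.07 CPM. In the M animals Rspo3 went from 5.11 to 3.56 CPM, from 6.07 to 0.957 CPM and from 2.83 to 1.09 CPM. The log2 fold change was -1.02 ± 0.24 (SE) with the block, adjusted p = 0.0138 (edgeR), and -0.95 ± 0.27 (SE) without it, adjusted p = 0.0658 (edgeR). Leaving out F replicate 3, the pair that went the other way, brought the unpaired value to -1.08, adjusted p = 0.0464 (edgeR), where 0.825% of all genes were called. That was the smallest adjusted p of the 14 unpaired settings without 1 animal, which ran up to 0.162 (edgeR). No other unpaired setting in edgeR called Rspo3.

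Wnt2 (gene ID 22413, chromosome 6 at 17985474 to 18032751, minus strand) encodes a Wnt ligand made by liver sinusoidal endothelial cells. It measured 0.779 CPM at the lowest, 1.33 CPM at the median and 2.90 CPM at the highest in peritumour tissue, and 0.320, 0.918 and 2.02 CPM in tumour. Below every peritumour library lay 5 tumours, and only those of F replicate 5 and M replicate 1 were above their own. The log2 fold change was -0.84 ± 0.19 (SE) with the block, adjusted p = 0.0131 (edgeR), and -0.82 ± 0.29 (SE) without it, adjusted p = 0.122 (edgeR).

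Wnt9b (gene ID 22412, chromosome 11 at 103727363 to 103749821, minus strand), the Wnt ligand of central vein endothelium in mouse liver, did not pass in either fit. Levels were 0.454, 2.29 and 4.16 CPM (lowest, median, highest) in peritumour and 0.447, 1.38 and 2.93 CPM in tumour. Tumour was lower in 10 of 14 pairs. The M animals moved in opposite directions, from 0.884 to 2.55 CPM in replicate 1 and from 2.53 to 0.447 CPM and 2.05 to 0.448 CPM in replicates 2 and 3. The log2 fold change was -0.55 ± 0.26 (SE) with the block, adjusted p = 0.181 (edgeR), and -0.54 ± 0.34 (SE) without it, adjusted p = 0.386 (edgeR).

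DNA before 1 RefSeq start of each of these ligands, the one listed in the promoter table, is shown because both are lower in most tumours and because the windows could hold the word that TCF factors read. The sequences are from RefSeq on GRCm38.p6, 5′ to 3′ on the strand of the gene, without any base inside an annotated exon, and capitals would mark a match. Both are inner starts, since the longest RefSeq spans of Wnt2 and Wnt9b begin farther upstream, at 18032772 on chromosome 6 and 103775272 on chromosome 11. In the Wnt2 window 140 bases lie within an annotated exon, so its stretch is shorter.
Wnt2, inner start, chr6:18030586-18030695, minus strand: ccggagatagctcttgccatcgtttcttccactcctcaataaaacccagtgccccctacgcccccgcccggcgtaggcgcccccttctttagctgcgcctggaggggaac
Wnt9b, inner start, chr11:103749822-103750071, minus strand: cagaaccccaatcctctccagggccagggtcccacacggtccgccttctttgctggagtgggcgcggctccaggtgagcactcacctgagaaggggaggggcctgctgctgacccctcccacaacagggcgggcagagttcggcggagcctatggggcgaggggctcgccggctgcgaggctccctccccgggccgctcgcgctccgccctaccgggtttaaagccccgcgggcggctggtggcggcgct
Any of the words CTTTGAA or else CTTTGAT or else CTTTGTA or else CTTTGTT was searched for, on both strands of the 250 bases before a start, and 14.8% of 32851 such windows in the table held at least 1 of them. Neither of the ligand windows did.

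The receptor ligases differed from each other. Rnf43 (gene ID 207742, chromosome 11 at 87663087 to 87735539, plus strand), a ubiquitin ligase that removes Frizzled from the cell surface, measured 3.90, 12.0 and 22.0 CPM (lowest, median, highest) in peritumour and 3.00, 8.18 and 17.6 CPM in tumour. It was lower in 13 of 14 tumours by CPM, with F replicate 5 the exception at 4.61 against 3.90 CPM (12 of 14 after TMM scaling, F replicate 11 then being 0.03 higher on the log2 scale), and 4 peritumour libraries lay above every tumour. The log2 fold change was -0.72 ± 0.13 (SE) with the block, adjusted p = 0.00276 (edgeR), against -0.69 ± 0.26 (SE) and adjusted p = 0.149 (edgeR) without it. Znrf3 (gene ID 407821, chromosome 11 at 5276329 to 5444847, minus strand), its close relative, measured 12.5, 17.8 and 25.9 CPM in peritumour and 11.3, 19.4 and 26.2 CPM in tumour. By CPM it was higher in 9 of 14 tumours, all 3 M tumours among them. Its log2 fold change was 0.06 ± 0.09 (SE) with the block, adjusted p = 0.689 (edgeR).

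Notum (gene ID 77583), a secreted esterase that strips the lipid from Wnt proteins, had the most regular difference of the 10 genes. Peritumour levels were 1.04, 11.3 and 20.7 CPM (lowest, median, highest) and tumour levels 0.816, 5.58 and 13.8 CPM. Tumour was lower in all 14 pairs by CPM, and 6 peritumour libraries lay above every tumour. The smallest steps were in F replicate 5, from 1.04 to 0.816 CPM, and F replicate 11, from 15.1 to 13.8 CPM; after TMM scaling the latter was 0.01 higher on the log2 scale. The log2 fold change was -0.91 ± 0.15 (SE) with the block, adjusted p = 0.00212 (edgeR), and -0.79 ± 0.36 (SE) without it, adjusted p = 0.231 (edgeR). Its row lies on chromosome 11 at 120647670 to 120661815, spans the neighbour Myadml2 and gives the strand opposite to GENCODE, and Myadml2 itself had 0 to 12 estimated counts per library.

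Nkd1 (gene ID 93960, chromosome 8 at 88521344 to 88594887, plus strand), which binds Dishevelled and dampens the signal, was lower in 12 of 14 tumours and did not pass over all animals. Peritumour levels were 1.32, 4.09 and 6.41 CPM (lowest, median, highest), and tumour levels were 0.660, 2.82 and 10.5 CPM. The highest value was the tumour of F replicate 2, at 10.5 CPM against 2.47 CPM in its own peritumour tissue, while the other 13 tumours lay between 0.660 and 4.17 CPM. The log2 fold change was -0.50 ± 0.22 (SE) with the block, adjusted p = 0.136 (edgeR), and -0.65 without the pair of F replicate 2, adjusted p = 0.0177 (edgeR). Then 5 of the 10 genes were called, among 14% of all genes. That pair had the highest Nkd1 difference and was noticed after the values were seen, so the call is no independent result. Of 22 settings with the block Nkd1 passed in 2, both without F replicate 2. With 1 animal left out its adjusted p ran up to 0.236 (edgeR).

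Windows of Rnf43, Nkd1 and Tcf7l2 are shown for the same search. That of Nkd1 lies before an inner start, since its longest RefSeq span begins at 88521342 on chromosome 8. Rnf43 has a second RefSeq start within the gene, and the window of its first start lies inside an annotated exon and is not shown.
Rnf43, second start, chr11:87699647-87699896, plus strand: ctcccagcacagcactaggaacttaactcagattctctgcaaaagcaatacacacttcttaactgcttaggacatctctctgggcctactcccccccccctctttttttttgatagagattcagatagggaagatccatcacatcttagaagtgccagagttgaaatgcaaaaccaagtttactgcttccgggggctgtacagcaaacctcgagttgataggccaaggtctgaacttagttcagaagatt
Nkd1, inner start, chr8:88527383-88527632, plus strand: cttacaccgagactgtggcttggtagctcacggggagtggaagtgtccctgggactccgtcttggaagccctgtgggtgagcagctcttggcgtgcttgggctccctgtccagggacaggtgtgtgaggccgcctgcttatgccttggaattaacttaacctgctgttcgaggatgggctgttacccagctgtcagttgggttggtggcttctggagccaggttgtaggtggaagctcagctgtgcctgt
Tcf7l2, second start, chr19:55895071-55895320, plus strand: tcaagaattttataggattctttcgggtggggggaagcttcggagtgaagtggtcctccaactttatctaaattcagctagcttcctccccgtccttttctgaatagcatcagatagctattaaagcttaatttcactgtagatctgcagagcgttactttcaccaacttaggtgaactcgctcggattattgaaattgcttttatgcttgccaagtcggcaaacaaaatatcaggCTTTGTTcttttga
Of 9 windows matched to 6 of the 10 genes (Wnt2, Wnt9b, Nkd1, and 2 starts each of Rnf43, Ctnnb1 and Tcf7l2), the one before the second Tcf7l2 start held a listed word, CTTTGTT, 14 bases before that start and marked in capitals. Rspo3, Znrf3, Notum and Apc had no window. No match says only that these letters are not in this stretch.

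The intracellular core showed no shift that exceeded the spread between animals. Ctnnb1 (gene ID 12387, chromosome 9 at 120933400 to 120991106, plus strand), which encodes beta-catenin, ran from 191 to 362 CPM in peritumour tissue, with a median of 287 CPM, and from 151 to 662 CPM in tumour, with a median of 302 CPM. The 662 CPM was again the tumour of F replicate 2, and the next tumour held 402 CPM. Its log2 fold change was 0.05 ± 0.09 (SE) with the block, adjusted p = 0.747 (edgeR). The row overlaps part of Ulk4, which had 1 to 50 estimated counts per library beside 2573 to 10323 for Ctnnb1.

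Apc (gene ID 11789, chromosome 18 at 34220617 to 34322190, plus strand), the destruction complex scaffold, varied widely in both tissues, from 15.4 to 54.9 CPM in peritumour and from 6.52 to 73.1 CPM in tumour, and was higher in tumour in 7 pairs and lower in 7. Its log2 fold change was -0.09 ± 0.14 (SE) with the block, adjusted p = 0.694 (edgeR). Apc levels went with the code style, at 46.0 to 73.1 CPM in first-style tumours and 6.52 to 40.1 CPM in second-style tumours. Peritumour levels overlapped, at 24.6 to 50.8 CPM in the first style and 15.4 to 54.9 CPM in the second. With the block the log2 fold change of Apc was 0.19 in the first style and -0.32 in the second. The part of the style was not tested. Tcf7l2 (gene ID 21416, chromosome 19 at 55741785 to 55933661, plus strand), the main TCF factor of hepatocytes, ran from 11.9 to 26.3 CPM in peritumour and from 11.8 to 26.2 CPM in tumour. Its log2 fold change was 0.05 ± 0.10 (SE) with the block, adjusted p = 0.796 (edgeR). These values concern transcripts, and neither the beta-catenin protein nor mutations of these genes were measured here.

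**Figure D2:**
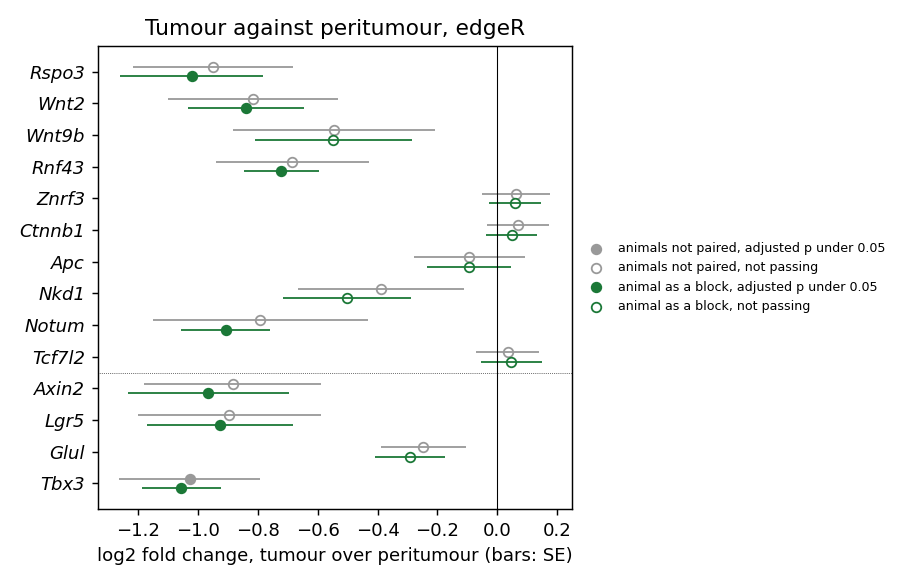
Log2 fold change of tumour over peritumour (horizontal axis) with its standard error for the 10 genes and, below the dotted line, for 4 pathway targets, from edgeR without pairing (grey) and with the animal as a block (green). Filled points pass an adjusted p of 0.05. Rspo3, Wnt2, Rnf43 and Notum pass with the block and lie between -1.02 and -0.72, whereas Znrf3, Ctnnb1, Apc and Tcf7l2 lie within 0.1 of 0.

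The authors' deposited table gives a log2 fold change of tumour over peritumour that points the same way as the mean CPM for all 10 genes, at -0.91 for Rspo3, -0.78 for Notum, -0.77 for Wnt2, -0.65 for Rnf43, -0.50 for Wnt9b and -0.29 for Nkd1. By the authors' deposited table, of the 10 genes 9 have a q-value under 0.05, Apc (q = 0.611) being the exception, and Ctnnb1 has a q-value of 6.03e-81 at a log2 fold change of 0.15. The columns are named for degseq. The edgeR tests above, in which the spread between animals sets the error, called none of the 10 without pairing and 4 with it.

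On the log2 scale the tumour minus peritumour difference of Rspo3 averaged -0.99 ± 0.85 (SD, n = 14) and ran from -2.54 in M replicate 2 to 0.15 in F replicate 3. That of Wnt2 averaged -0.77 ± 0.55 (SD, n = 14). That of Wnt9b averaged -0.51 ± 0.93 (SD, n = 14) and ran from -2.22 to 1.41, both ends in M animals. The spread of Rnf43 (-0.71 ± 0.47), Notum (-0.89 ± 0.56) and Apc (-0.10 ± 0.58) was near that of Wnt2, while Ctnnb1 (0.05 ± 0.31) and Znrf3 (0.06 ± 0.31) varied least of the 10 genes (SD, n = 14 each). In F replicate 5 the differences of Rspo3, Wnt2, Wnt9b, Rnf43 and Notum all lay between -0.33 and 0.21, and its libraries had the lowest Notum of their tissue, at 1.04 and 0.816 CPM.

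**Figure D3:**
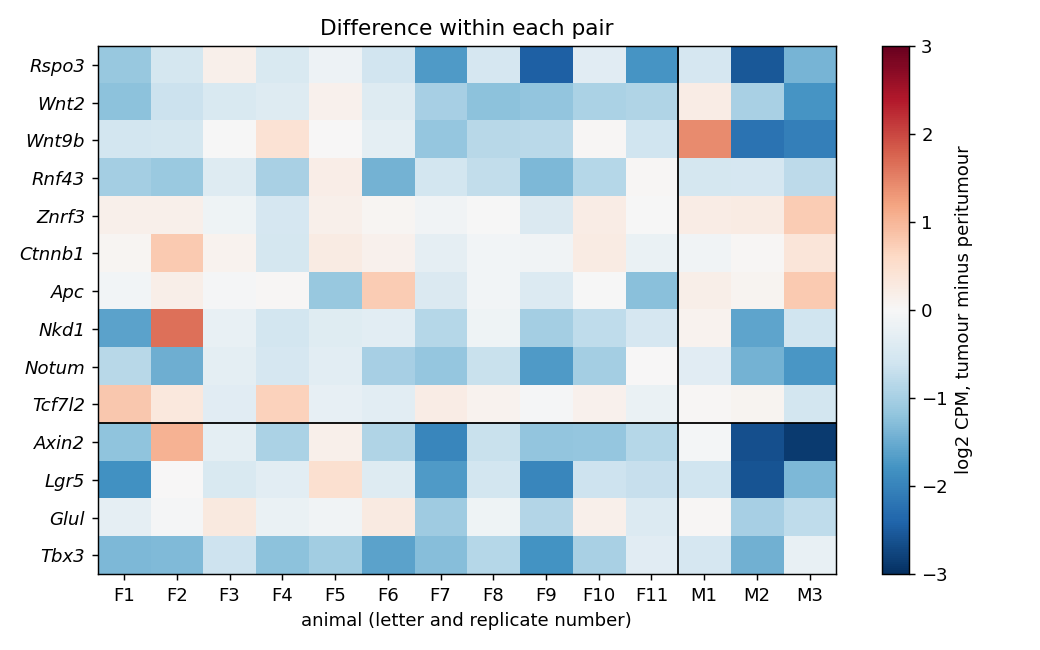
Tumour minus peritumour difference in log2 CPM (colour, blue lower and red higher in tumour) for each animal (columns, F then M) and for the 10 genes and 4 pathway targets (rows). Notum, Rspo3 and Tbx3 are blue in nearly every column, and F replicate 2 is red for Nkd1 (1.66) and Axin2 (1.05) while blue for Notum (-1.46) and Rnf43 (-1.11).

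Whether animals with less ligand also had less feedback transcript was examined over 14 pair differences, for 3 ligands against 4 feedback genes, 12 relations in all. Of these 3 had an unadjusted two-sided permutation p under 0.05 and none passed after adjustment over the 12. Wnt9b and Notum gave Pearson r = 0.65 (permutation p = 0.011, adjusted 0.129) and Spearman rho = 0.55 (permutation p = 0.0464, adjusted 0.147), with r = 0.60 without M replicates 1 and 2, the pairs farthest from the median of Wnt9b. Within the code styles r was 0.84 over 6 pairs and 0.37 over 8 pairs. Wnt2 and Notum gave r = 0.61 (permutation p = 0.0215, adjusted 0.129) and rho = 0.58 (permutation p = 0.033, adjusted 0.147), with r = 0.48 without M replicate 1 and F replicate 5, and 0.75 and 0.45 within the styles. Rspo3 and Nkd1 gave r = 0.54 (permutation p = 0.0438, adjusted 0.175) and rho = 0.54 (permutation p = 0.049, adjusted 0.147), with r = 0.35 without M replicate 2 and F replicate 9, and 0.62 and 0.67 within the styles. Both members of a relation come from the same libraries, and the other 9 relations ran from r = -0.35 (Wnt9b and Znrf3) to 0.51 (Rspo3 and Notum).

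Among 12690 genes compared by their differences in the 14 pairs, those most like Rspo3 were Dcn (r = 0.91), a matrix proteoglycan of fibroblasts and stellate cells, Lrat (r = 0.90), the retinol-esterifying enzyme of stellate cells, and Zswim7 (r = 0.89). Wnt2 was most like Ecscr (r = 0.83), an endothelial surface protein, Itm2b (r = 0.82) and Jdp2 (r = 0.79). Wnt9b was most like Adamts13 (r = 0.82), the protease that cleaves von Willebrand factor, Itm2b (r = 0.81) and Nxpe2 (r = 0.81). Nkd1 was most like Tnip2, Map1b and Cryab (r = 0.89, 0.89 and 0.88). These are the highest of many values over the same libraries and are given as a description, with no test.

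Targets of beta-catenin in liver were mostly lower in tumour. Of 12 tested genes of the pericentral and feedback list (13 listed, Sp5 not passing the filter), 9 fell and none rose with the block, and 1 fell without it. The median log2 fold change of the list was -0.93 with the block, beside -0.01 over all genes. Tbx3, a transcription factor of pericentral hepatocytes, ran from 4.41 to 20.6 CPM in peritumour and from 2.10 to 14.4 CPM in tumour, was lower in 14 of 14 pairs, and passed in both fits (log2 fold change -1.06 ± 0.13 SE, adjusted p = 0.000713 with the block, and -1.03 ± 0.23 SE, adjusted p = 0.0392 without it, edgeR).

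Cyp1a2, a drug-metabolising cytochrome of the same zone, had a median of 135 CPM in peritumour and 65.2 CPM in tumour and fell with the block (-1.37 ± 0.18 SE, adjusted p = 0.000733, edgeR). Axin2, the feedback scaffold, had medians of 5.88 and 3.05 CPM and fell with the block (-0.97 ± 0.27 SE, adjusted p = 0.0293, edgeR), a call lost without any of 4 animals (F replicates 7, 9 and 10, M replicate 2; adjusted p up to 0.0634, edgeR). Lgr5, the R-spondin receptor, had medians of 2.85 and 1.31 CPM and fell with the block (-0.93 ± 0.24 SE, adjusted p = 0.0230, edgeR), a call lost without F replicate 7 or 9 (adjusted p up to 0.0522, edgeR). Glul, glutamine synthetase, is restricted to the innermost pericentral hepatocytes. It had medians of 266 and 229 CPM and did not pass after adjustment (-0.29 ± 0.12 SE, unadjusted p = 0.0223, adjusted p = 0.111 with the block, edgeR). Ccnd1, a cell cycle target, had medians of 59.5 and 77.0 CPM and an adjusted p of 0.766 with the block (edgeR). Without F replicate 2 the count of called list genes stayed at 9 of 12, and it was 5 of 12 without F replicate 9 or among the F animals alone. The calls over all genes moved as well, at 14% without F replicate 2, 928 of 14086 genes without F replicate 9 and 9.6% among the F animals alone. Hepatocyte markers outside this programme moved unevenly. Of 8, 4 fell with the block, among them Tat (-0.79 ± 0.14 SE, adjusted p = 0.00270, edgeR) and Hpd (-0.68 ± 0.14 SE, adjusted p = 0.00861, edgeR). The other 4 did not pass: Ttr (-0.27), Ass1 (-0.05), Hnf4a (0.0008) and Apoa1 (0.24). By CPM Ass1, Hnf4a and Apoa1 were each higher in 9 of 14 tumours. The summed levels were 21087 to 48246 CPM in tumour and 19354 to 59342 CPM in peritumour. Their part in the result was not tested.

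The other genes of the pathway are read beside the 11.5% of all genes called with the block (5.59% higher, 5.91% lower). Of 21 other Wnt ligands and R-spondins, Wnt1 and Ndp were not used here, 13 did not pass the filter, and none of the 6 tested was called in either fit (Wnt2b, Wnt4, Wnt5a, Wnt5b, Wnt7b and Wnt16). Among 16 tested receptors, with the block, Fzd5, a Frizzled receptor, rose (0.41 ± 0.12 SE, adjusted p = 0.0410, edgeR), a call that was lost without any of 11 animals, Lgr5 fell, and 14 did not pass. Of 15 destruction complex and Dishevelled genes 3 rose and 1 fell with the block. Nkd2, of the same family as Nkd1, was higher in 12 of 14 tumours by CPM without passing (1.14 ± 0.36 SE, adjusted p = 0.0506 with the block, edgeR). Dvl3, which relays the signal from Frizzled, ran from 29.0 to 60.8 CPM in peritumour and from 38.2 to 75.5 CPM in tumour, was higher in 14 of 14 tumours and passed in both fits (0.39 ± 0.06 SE, adjusted p = 0.00157 with the block, and 0.39 ± 0.09 SE, adjusted p = 0.0392 without it, edgeR). Axin1, the constitutive Axin scaffold, rose with the block (0.31 ± 0.07 SE, adjusted p = 0.0148, edgeR), as did Dvl2, while Axin2 fell. Of 13 nuclear factors Pygo2, a beta-catenin co-activator, rose with the block (0.29 ± 0.08 SE, adjusted p = 0.0268, edgeR). None of 7 tested secreted inhibitors and secretion factors was called in either fit, Wls and Porcn, which serve Wnt secretion, among them.

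**Figure D4:**
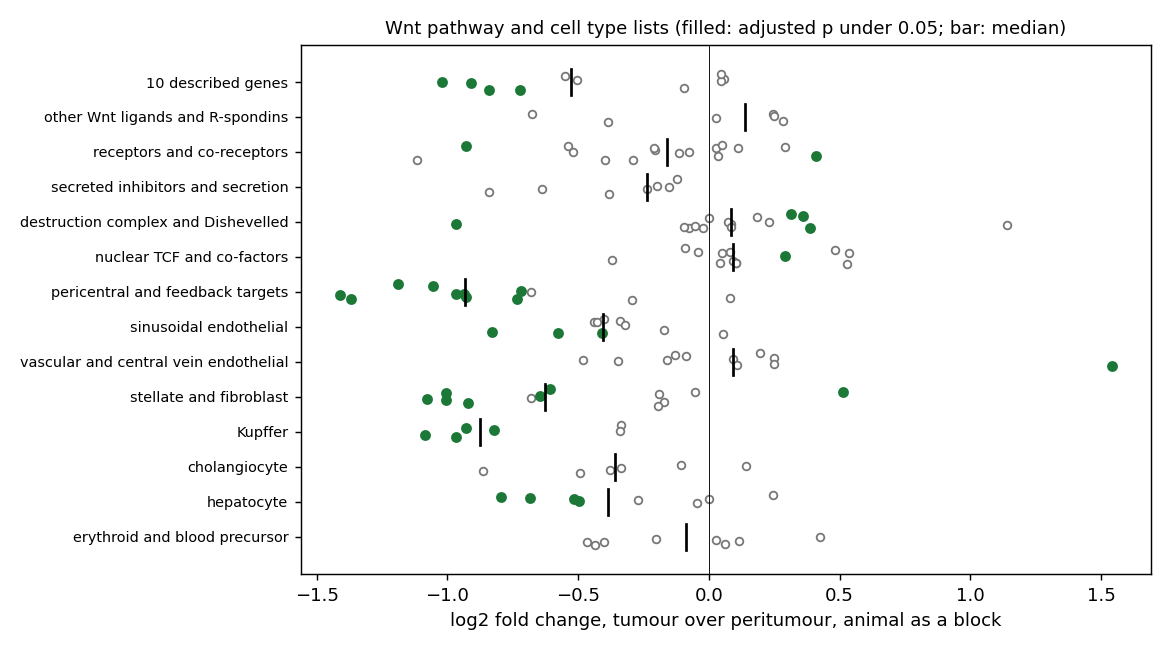
Log2 fold change of tumour over peritumour with the animal as a block (horizontal axis) for every tested gene of the Wnt pathway and cell type lists (rows, with a small vertical scatter). Filled points pass an adjusted p of 0.05, open points do not, and black bars are list medians. On the left 9 of 12 pericentral targets are filled, at a median of -0.93. The medians of receptors (-0.16) and nuclear factors (0.09) are nearer 0, with single genes farther out, such as Lgr5 (-0.93) and Fzd5 (0.41).

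Markers of the cells that make the ligands moved unevenly. In tissue RNA, fewer cells of a type and less RNA per cell cannot be told apart. Of 10 sinusoidal endothelial markers 3 fell with the block and none rose, among them Clec4g (-0.83 ± 0.17 SE, adjusted p = 0.00786, edgeR) and Dnase1l3 (-0.57 ± 0.14 SE, adjusted p = 0.0189, edgeR), and the list median was -0.40. Their summed level was 220 to 472 CPM in peritumour and 140 to 354 CPM in tumour. Of 11 vascular and central vein endothelial markers Apln, a vascular ligand, rose in both fits (1.54 ± 0.40 SE, adjusted p = 0.0215 with the block, edgeR) and 10 did not pass, at a list median of 0.09. Their summed level was 133 to 275 CPM in peritumour and 126 to 298 CPM in tumour.

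Of 12 stellate and fibroblast markers 6 fell and 1 rose with the block. Lrat (-1.01 ± 0.16 SE, adjusted p = 0.00206, edgeR), Dcn (-1.08 ± 0.22 SE, adjusted p = 0.00757, edgeR) and Reln (-0.65 ± 0.13 SE, adjusted p = 0.00633, edgeR) were among the falls, and Acta2, the actin of activated stellate cells and smooth muscle, rose (0.51 ± 0.16 SE, adjusted p = 0.0446, edgeR), a call also lost without any of 11 animals. The summed level of the 12 was 404 to 1338 CPM in peritumour and 205 to 1416 CPM in tumour. Of 6 Kupffer cell markers 4 fell with the block, among them Vsig4 (-0.97 ± 0.18 SE, adjusted p = 0.00397, edgeR) and Clec4f (-0.93 ± 0.20 SE, adjusted p = 0.00896, edgeR), with a summed level of 190 to 690 CPM in peritumour and 140 to 760 CPM in tumour. None of 8 erythroid and blood precursor genes and none of 6 cholangiocyte markers was called with the block. No marker of any of these lists was at 0 in every library. The part of these cells in the lower Rspo3 and Wnt2 was not tested.

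Within the code styles the fold changes of the 4 called genes were alike. With the block, Rspo3 stood at -1.003 in the first style and -1.03 in the second, Wnt2 at -0.86 and -0.83, Rnf43 at -0.72 in both, and Notum at -1.01 and -0.83. The first style alone, 6 pairs, called no gene at all in edgeR, the smallest adjusted p of the 10 being that of Rnf43 (0.482). The second, 8 pairs, called 7.51% of genes and 2 of the 10, Rnf43 and Notum. Among the F animals alone 9.6% of genes were called with the block and 4 of the 10, and without F replicates 2, 5 and 6 it was 14.9% and 5. DESeq2 called 16.9% of genes and 4 of the 10 with the block, and 4.43% of genes and only Rspo3 of the 10 without it.

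For the letters, the fit of the 4 groups was used. Between Tu_F and Pe_F 0.312% of genes were called without pairing and none of the 10, and 9.84% with the block (5.23% lower), Rspo3 (-0.88 ± 0.27 SE, adjusted p = 0.0450), Wnt2 (-0.83 ± 0.22 SE, adjusted p = 0.0289), Rnf43 (-0.75 ± 0.14 SE, adjusted p = 0.00611) and Notum (-0.84 ± 0.17 SE, adjusted p = 0.00778) among them (edgeR). Leaving out 1 animal left 2 to 5 of the 10 called there: Rnf43 and Notum always passed, both Rspo3 and Wnt2 were lost without F replicate 1, 7, 8, 9, 10 or 11, and Rspo3 alone without F replicate 4 or 6 or M replicate 3. Between Tu_M and Pe_M, with 3 pairs, edgeR called no gene with either fit, and DESeq2 called 3 without and 102 with the block. Of 14117 genes in edgeR, 574 had an unadjusted p under 0.05 without and 1360 with the block. With no difference at all, a share of about 0.05 of genes would fall under that threshold. The log2 fold changes of the 10 genes there ran from -1.52 for Rspo3 to 0.41 for Znrf3 with the block. Tissue by tissue, M and F differed in 0.0283% of genes both in peritumour and in tumour, none of the 10 among them, and every M library has the first code style.

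The difference of the tumour change between M and F was called for no gene in edgeR and for 1 gene in DESeq2. Of 14117 genes in edgeR, 423 had an unadjusted p under 0.05 without and 1001 with the block, beside the same share of about 0.05 with no difference. The smallest unadjusted p among the 10 was that of Znrf3, whose change was 0.45 ± 0.19 (SE) higher in M than in F animals with the block, adjusted p = 0.689 (edgeR). Znrf3 went from 21.1 to 24.3 CPM, from 16.2 to 19.8 CPM and from 13.1 to 23.9 CPM in the 3 M animals. By CPM it was higher in 3 of 3 M tumours and in 6 of 11 F tumours, but after TMM scaling 6 of 11 F tumours were lower. On the log2 scale its difference averaged 0.24 in the first code style, with 1 of 6 pairs below 0. In the second style it averaged -0.07, with 5 of 8 pairs below 0. All 3 M pairs have the first style, and the part of the style was not tested.

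The tumour of F replicate 2 had a different ligand and feedback pattern from the other 13 tumours, though that of F replicate 6 came next in Wnt7b and Wnt10a and above it in Wnt4. Wnt7b, a ligand best known from epithelia, stood at 84.9 CPM in the tumour of F replicate 2 against 0.0650 CPM in its own peritumour tissue. The other 13 tumours had a median of 0.202 CPM and at most 4.38 CPM, in F replicate 6. Wnt10a stood at 35.8 CPM, against 0.195 CPM beside it. The other tumours had a median of 0.134 CPM and at most 1.69 CPM, again in F replicate 6. Wnt4 stood at 26.3 CPM in the tumour of F replicate 2, although that of F replicate 6 held more, at 65.1 CPM. Among the feedback genes Nkd1 (10.5 CPM) and Axin2 (7.76 CPM) were at their tumour maximum by CPM, whereas Notum (3.91 against 8.44 CPM) and Rnf43 (7.25 against 12.1 CPM) were lower than in the tissue beside it. Ctnnb1 (662 CPM), Apc (73.1 CPM) and Tcf7l2 (26.2 CPM) were also highest among tumours in F replicate 2 by CPM. After TMM scaling Nkd1, Ctnnb1, Apc, Wnt7b and Wnt10a were still highest there, Axin2 was not (5.72 against 6.09 CPM in the tumour of F replicate 8), and Tcf7l2 was not (19.3 against 22.7 CPM in the tumour of F replicate 4).

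All 6 cholangiocyte markers were highest in that tumour too, with a summed level of 1942 CPM against 129 CPM in its peritumour tissue and 21.8 to 221 CPM in the other 13 tumours. Krt19, the bile duct keratin, reached 799 CPM, with the tumour of F replicate 6 next at 39.0 CPM. Epcam, an epithelial adhesion protein, reached 126 CPM, with the tumour of F replicate 3 next at 27.4 CPM. Summed hepatocyte markers were lowest in the tumour of F replicate 2, at 21087 CPM, against 25930 to 48246 CPM in the others. This library also had the highest TMM factor, 1.36, so its CPM values are 1.36 times those scaled by TMM. It is 1 tumour of 1 animal, noticed after the values were seen, and no test was made.

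**Figure D5:**
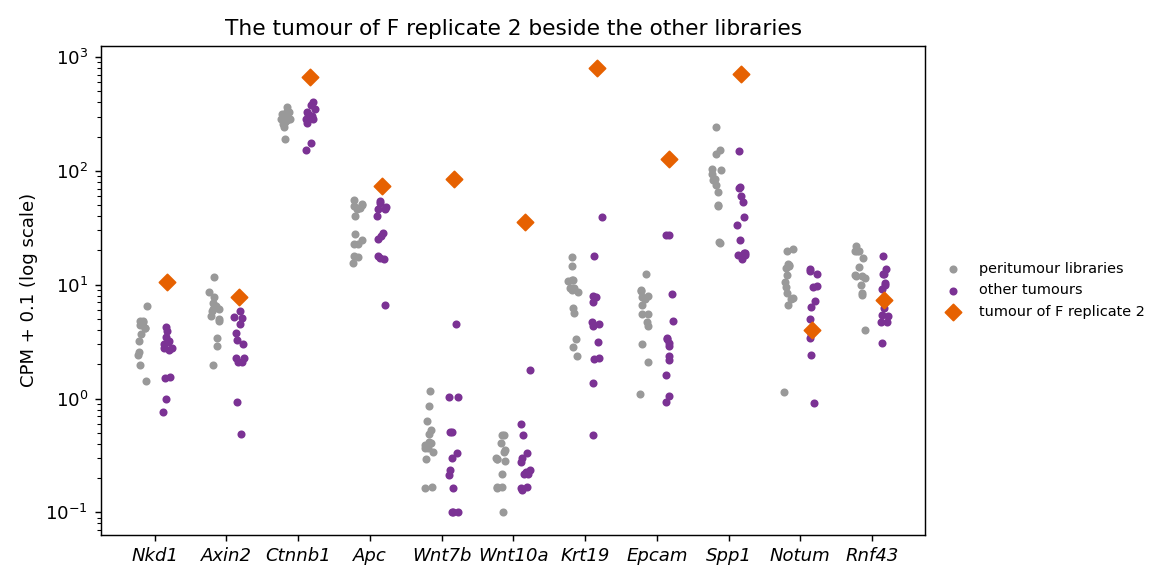
CPM plus 0.1 (vertical axis, log scale) of 11 genes in the peritumour libraries (grey, n = 14), in 13 tumours (purple) and in the tumour of F replicate 2 (orange diamond). The diamond lies above every other tumour for Nkd1, Axin2, Ctnnb1, Apc, Wnt7b, Wnt10a, Krt19, Epcam and Spp1 and within their range for Notum and Rnf43; after TMM scaling it lies below 1 other tumour for Axin2.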

How the data were processed

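RNA sequencing of 14 tumour and 14 peritumour tissues was used. Libraries were made from Trizol RNA after oligo(dT) selection and random-hexamer priming, per the labels' protocols. No source used here says whether strand was kept, so a gene's reads may include those of antisense transcripts. The submitters' processing notes list DESeq2 1.4.5, RSEM 1.2.12, Bowtie2 2.2.5 and HISAT2 2.0.4 but no roles. The authors deposited estimated counts and TPM values per gene and library in 1 table on GRCm38, per the file headers, 8.06% of the counts not being whole. A log2 fold change and a q-value for tumour against peritumour are in the same table deposited by the authors. 28 FPKM columns and 9 columns of a further group, Li, that matches no sample were not used; 1 line lacked a gene ID, and 26 symbols that had turned into dates were restored by gene ID, of which 18060 were found in the reference table.

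Counts were rounded to whole numbers and tested with edgeR 4.0.16 (R 4.3.3). After filterByExpr 14117 genes were left, TMM factors were 0.809 to 1.36, and the quasi-likelihood fit was robust. Adjustment was Benjamini-Hochberg, with a threshold of 0.05. Without pairing, letter and code style were covariates. With the block, the model held animal and tissue, without terms for letter or code style. A second fit of the 4 groups gave the other contrasts, with code style as a covariate when unpaired and the animal in its place with the block. SE is the fold change divided by the root of F. Pairing comes from the shared sample code, taken as the animal. Within all 14 pairs the deviations from the means of group and code style correlated (0.136 to 0.610, median of unpaired libraries -0.0171). Of the 14 tumours, 10 correlated best with their own peritumour library. Those of F replicates 2 and 6 and M replicates 1 and 3 correlated better with that of another animal. The biological coefficient of variation was 0.382 without and 0.270 with the animal as a block. Where nothing says how a tissue was sampled, p-values measure the spread between these samples. Pair differences are of log2 TMM CPM with a prior count of 2, and relations used 100000 permutations. Alternatives were DESeq2 1.42.0, library-size scaling, no filter, each animal left out, each code style, F animals alone, and leaving out F replicates 2, 5 and 6.

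The genes described, the lists and the tests were chosen with earlier results of these data known. Genes named beside the 10 were, per list, up to 2 risen and 2 fallen with the smallest adjusted p in each fit. Also named were the 3 genes most alike for Rspo3, Wnt2, Wnt9b and Nkd1, and Axin2, Lgr5, Glul and Tbx3. Those named for the tumour of F replicate 2, and Ccnd1, Wls, Porcn, Dvl2 and Nkd2, were chosen after their values were seen. Promoter sequences are from RefSeq, GRCm38.p6.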

Additional observations from a re-analysis of the deposited data

How the results depend on the processing

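The animal block decided most calls: it moved the count of genes in tumour against peritumour from 148 to 1624, that of the 10 described genes from 0 to 4, and in Tu_F against Pe_F from 44 to 1389 and from 0 to 4. Without the block, tumour against peritumour called 622 genes in DESeq2, 455 without F pairs 2, 5 and 6, 2 with no filter, and 0 in F animals alone and in either code style alone. With the block it called 2387 in DESeq2, 1828 with library-size scaling, 1225 with no filter, 1256 in F animals alone, 2058 without F pairs 2, 5 and 6, 981 in the second style alone and 0 in the first. Leaving out 1 animal gave 0 to 246 genes without the block and 899 to 1956 with it. Library-size scaling turned the blocked split of 789 higher and 835 lower into 1151 and 677, and shifted the median of all genes to -0.13 between M and F in peritumour and -0.11 in tumour.

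Of the 10 genes, DESeq2 called 1 without the block (Rspo3). With the block 4 were called in DESeq2, F animals alone, library-size scaling and no filter, 2 in the second style and 5 without F pairs 2, 5 and 6; leaving out 1 animal gave 0 to 1 without and 4 to 5 with the block. Tu_F against Pe_F called 546 genes in DESeq2, 24 with library-size scaling and 11 with no filter, and with the block 2249, 1486 and 1065, with 4, 3 and 4 of the 10 genes; leaving out 1 animal gave 0 to 75 genes without and 756 to 1524 with the block, and 0 and 2 to 5 of the 10. Tu_M against Pe_M, 0 genes in edgeR, had 3 in DESeq2, 102 in DESeq2 with the block, and 0 to 4 when an animal was left out. Tu_M against Tu_F called 68 genes in DESeq2 against 4, and the difference between letters 1 in DESeq2, also with the block.

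Signs of genes near 0 turned. Znrf3 was -0.0325 in F animals alone (-0.0401 with the block) and -0.0658 in the second style (-0.0731 with the block). Ctnnb1 was -0.0377 in the second style (-0.0655 with the block) and -0.0243 without F pairs 2, 5 and 6 (-0.0374 with the block). Apc was 0.18 in the first style (0.19 with the block). When an animal was left out, with or without the block, Apc ran from -0.159 to 0.0211, Ctnnb1 from -0.0019 to 0.1076 and Tcf7l2 from -0.024 to 0.1016. Relations also turned: Rspo3 and Znrf3 to r = -0.0396 without F pairs 2, 5 and 6 and -0.51 in the first style, Wnt2 and Znrf3 to 0.19 and Wnt9b and Znrf3 to 0.0125 in the second style, and Wnt9b and Rnf43 to -0.0024 with library-size scaling and -0.0035 without F pairs 2, 5 and 6. The cause was not tested. Rspo3, Wnt2, Wnt9b, Rnf43, Nkd1 and Notum stayed negative in all 44 settings run. With the block, Rspo3, Wnt2, Rnf43 and Notum passed whichever animal was left out (adjusted p at most 0.0343 in edgeR), as did 14 of the other 19 named genes called there; Acta2 and Fzd5 each lost the call without any of 11 animals, Axin2 without any of 4 (F replicates 7, 9 and 10, M replicate 2), and Lgr5 and Pygo2 without F replicate 7 or 9. Counts of 5 to 96 per library limit the precision for the 3 ligands.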
